A study of Mus musculus with 4 samples.

Results

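The genes described here are 10 markers of the endothelial cell surface and of endothelial junctions, *Emcn*, *Cd34*, *Cdh5*, *Pecam1*, *Cldn5*, *Esam*, *Plvap*, *Vwf*, *Clec1b* and *Gpr182*. They were chosen by symbol, each symbol stood for 1 gene of the deposited counts, and they are 10 of the 32285 genes counted. Their levels are given in the chamber endocardium, the cushion endocardium and the vascular endothelium of the E10.5 mouse heart, library by library, and then compared between genotypes within each of these cell types.

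Endothelial cells (ECs) line the vessels, and endocardial cells (EdCs) are the endothelium that lines the heart. In the chambers EdCs cover the trabeculae of the myocardium, and in the cushions some of them leave the lining and become the mesenchymal cells that build valves. Endothelial cells hold together through adherens junctions, built on VE-cadherin, and tight junctions, built on claudins, while sialomucins and other glycoproteins coat the side that faces the blood. Such genes serve as general endothelial markers, although vessels of different kinds use them to different degrees.

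Single-cell RNA sequencing (10x Genomics) was done on the cardiogenic region of embryos at E10.5, in 4 libraries. The control libraries 5 and 7 are labelled Tie2flfl, homozygous for a conditional allele of *Tie2* (gene symbol *Tek*, the receptor tyrosine kinase of the angiopoietins) without Cre. The *Tie2-cko* libraries 6 and 8 are labelled Nfatcre-Tie2flfl and carry the same alleles with a knock-in *Nfatc1Cre*, which is active in EdCs. All embryos therefore share the floxed alleles and differ by the Cre, and no library carries the Cre without them. The methods state 2 hearts per genotype from the same litter, matched by somites, with libraries pooled in a lane. Neither they nor the labels say which control matches which mutant, so p-values measure the spread between these 4 libraries alone.

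After filtering, 5684 to 10097 cells remained per library, with a median of 14898 to 25740 UMIs (unique molecular identifiers, each counted once per captured transcript). Any 2 libraries shared 12 to 29 of these barcodes, at most 0.343% of the smaller library. Cells were named from marker genes that include neither the 10 genes nor *Tek*. Chamber EdCs numbered 378, 139, 590 and 460 in libraries 5, 6, 7 and 8, cushion EdCs 268, 128, 495 and 459, and vascular ECs 97, 77, 52 and 96. All 5 chamber markers, all 7 cushion markers and 7 of the 8 vascular markers were detected in every library of their own type. Most were detected in the other endothelial types too, at lower summed levels. By the naming rule 5 of the 7 cushion markers counted as present in the cushion cluster. The summed chamber markers lay between 8.80 and 10.0 UMIs per 10000 in chamber EdCs against 1.54 to 2.42 in the other endothelial types. The summed cushion markers lay between 9.02 and 10.3 in cushion EdCs against 0.621 to 2.48. The summed vascular markers lay between 4.43 and 5.04 in vascular ECs against 1.91 to 2.71 in the EdCs. Red cell RNA differed between genotypes. In chamber EdCs all 5 red cell markers were lower in both *Tie2-cko* libraries, with summed levels of 34.5 to 78.1 UMIs per 10000 in controls and 12.3 to 13.9 in *Tie2-cko*, and with haemoglobin genes left out the log2 fold changes of the 10 genes between genotypes in chamber EdCs kept their size and 0 of the 10 passed the threshold.

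The deleted gene was checked first. The level, here and throughout, is the mean over the cells of a library of UMIs per 10000 UMIs of the cell. *Tek* had levels of 0.888 and 1.00 in the chamber EdCs of control libraries 5 and 7 and of 0.141 and 0.153 in those of *Tie2-cko* libraries 6 and 8. The log2 fold change of *Tie2-cko* over control was -2.58 (SE 0.20, edgeR quasi-likelihood test, Benjamini-Hochberg adjusted p = 0.00919). In cushion EdCs the levels were 0.792 and 1.55 against 0.308 and 0.215 (-2.45, SE 0.28, adjusted p = 0.0230, edgeR). In vascular ECs the genotypes overlapped, with 0.633 and 0.773 in controls and 0.710 and 0.608 in *Tie2-cko*. *Tek* therefore followed the labels in both endocardial types, and the difference of its genotype effect between chamber EdCs and vascular ECs was -2.43 (SE 0.32, adjusted p = 0.0478, edgeR).

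For 4 of the 10 genes the RefSeq tables for GRCm38.p6 held the sequence before the gene's start. *Plvap*, *Vwf*, *Cdh5*, *Pecam1*, *Esam* and *Gpr182* had no entry. The 250 bases before the RefSeq start are shown for these 4 because these were the genes with an entry. They lie on the plus strand at chr3:137340828-137341077 (*Emcn*), chr16:18776597-18776846 (*Cldn5*), chr1:194938571-194938820 (*Cd34*) and chr6:129397047-129397296 (*Clec1b*). Capitals mark the letters AGGAAG, searched on either strand as a form of an ETS motif. The shorter letters GGAA, or TTCC on the other strand, also occur in the *Emcn*, *Cd34* and *Clec1b* windows outside the capitals. They were not searched, so a window without capitals is not shown to lack ETS sites. The letters of a FOX motif (GTAAACA) were searched on both strands as well. So were those of a GATA motif, namely AGATAA. No 2 of the 3 motifs overlap in these windows.
Emcn: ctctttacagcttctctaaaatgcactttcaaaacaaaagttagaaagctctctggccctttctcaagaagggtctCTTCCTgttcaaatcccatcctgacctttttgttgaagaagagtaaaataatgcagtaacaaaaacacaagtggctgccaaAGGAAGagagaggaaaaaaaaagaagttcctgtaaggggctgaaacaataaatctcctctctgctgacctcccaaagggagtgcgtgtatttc
Cldn5: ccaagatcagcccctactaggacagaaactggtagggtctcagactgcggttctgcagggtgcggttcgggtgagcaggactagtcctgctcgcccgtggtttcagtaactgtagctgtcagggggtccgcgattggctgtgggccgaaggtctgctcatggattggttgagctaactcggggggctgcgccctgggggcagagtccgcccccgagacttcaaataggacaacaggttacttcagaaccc
Cd34: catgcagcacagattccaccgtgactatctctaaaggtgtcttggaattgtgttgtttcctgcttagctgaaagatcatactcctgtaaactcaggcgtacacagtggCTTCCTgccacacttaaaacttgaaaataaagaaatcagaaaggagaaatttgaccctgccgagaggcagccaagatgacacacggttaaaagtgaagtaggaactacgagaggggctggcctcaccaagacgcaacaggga
Clec1b: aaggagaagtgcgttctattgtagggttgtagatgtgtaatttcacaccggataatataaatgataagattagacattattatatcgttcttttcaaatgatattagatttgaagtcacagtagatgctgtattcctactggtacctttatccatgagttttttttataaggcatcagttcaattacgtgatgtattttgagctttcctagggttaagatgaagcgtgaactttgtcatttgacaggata
The *Emcn* window held AGGAAG on both strands, 174 to 169 and 93 to 88 bases before the start, and the *Cd34* window held it once, 142 to 137 bases before the start. The *Cldn5* and *Clec1b* windows held none of the letters searched, and no window held GTAAACA or AGATAA. Of 32851 such windows in the genome, 29.5% held AGGAAG, 3.17% GTAAACA and 9.99% AGATAA on either strand. G and C made up 40.8% of the *Emcn* window, 59.6% of that of *Cldn5*, 46.4% of that of *Cd34* and 33.2% of that of *Clec1b*, beside a median of 52.4% over all windows.

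The sialomucins *Emcn* and *Cd34* had opposite patterns in the endocardium. *Emcn* (endomucin, a mucin-like glycoprotein of the luminal endothelial surface, GENCODE M21 on GRCm38, chr3:137341067-137432185, plus strand) had levels of 5.02, 6.56, 4.67 and 6.48 in the chamber EdCs of libraries 5, 6, 7 and 8. In cushion EdCs they were 0.650, 0.733, 0.606 and 0.611, and in vascular ECs 4.55, 3.27, 6.76 and 6.71. Every chamber library lay above every cushion library, 8.74-fold on the means of the 4 libraries, whereas chamber EdCs and vascular ECs overlapped (5.68 ± 0.98 and 5.32 ± 1.71, mean ± SD over 4 libraries). *Cd34* (a sialomucin of endothelial and blood progenitor cells, chr1:194938819-194961279, plus strand) had levels of 1.16, 1.76, 1.06 and 1.33 in chamber EdCs. Cushion EdCs had 3.08, 3.46, 2.49 and 2.86, and vascular ECs 3.26, 2.43, 2.35 and 3.19. Chamber EdCs thus lay below both other types in every library, at 0.446 of the cushion mean and 0.473 of the vascular mean, and the libraries of those types overlapped. The annotated antisense gene *Gm16897* overlaps *Cd34*.

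Among the junction genes, *Cldn5* separated the vascular cells from the endocardium. *Cldn5* (a claudin of endothelial tight junctions, chr16:18776847-18778262, plus strand) had levels of 4.30, 3.58, 2.78 and 2.71 in vascular ECs. Its levels were 0.120, 0.063, 0.106 and 0.072 in chamber EdCs, resting on 36 to 100 UMIs per library, and 0.036 to 0.053 in cushion EdCs, resting on 13 to 31 UMIs. The vascular level was therefore far above both endocardial types in all 4 libraries, the chamber mean being 0.0270 of the vascular mean. *Esam* (an immunoglobulin-family adhesion molecule of endothelial tight junctions and platelets, chr9:37528078-37538319, plus strand) had levels of 1.21, 1.00, 1.12 and 0.987 in chamber EdCs, 0.528 to 0.636 in cushion EdCs and 2.22, 1.68, 2.32 and 2.39 in vascular ECs. The 3 types did not overlap, in the order vascular, chamber, cushion.

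*Cdh5* and *Pecam1* varied less between the types. *Cdh5* (VE-cadherin, the adherens junction cadherin of endothelium, chr8:104101625-104144511, plus strand) had levels of 1.96, 2.19, 2.23 and 2.13 in chamber EdCs, 1.56, 1.76, 1.64 and 1.80 in cushion EdCs and 2.63, 2.23, 3.26 and 3.60 in vascular ECs. The libraries of the 3 types did not overlap, but the lowest vascular library (2.232) and the highest chamber library (2.229) nearly met. *Pecam1* (PECAM-1 or CD31, an adhesion molecule at cell borders, chr11:106654217-106750628, minus strand) had levels of 1.93, 2.03, 1.72 and 1.97 in chamber EdCs, 2.39, 2.44, 2.09 and 2.31 in cushion EdCs and 1.93, 1.83, 2.12 and 2.77 in vascular ECs. Cushion EdCs lay above chamber EdCs in each library, and vascular ECs overlapped both. The antisense gene *Gm29682* overlaps *Cdh5*.

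*Plvap*, which encodes the protein of the diaphragms that span caveolae and fenestrae (chr8:71497765-71511752, minus strand, overlapped on the other strand by *Gtpbp3*), had levels of 4.74, 4.13, 4.69 and 3.37 in chamber EdCs. They were 2.49, 3.24, 1.99 and 2.11 in cushion EdCs and 4.10, 3.97, 4.44 and 5.23 in vascular ECs. Chamber and vascular cells overlapped, and the highest cushion library, *Tie2-cko* library 6, lay just under the lowest chamber library, *Tie2-cko* library 8. Within each library the chamber level was above the cushion level.

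Of the 2 genes known from haemostasis, *Vwf* did not separate the 3 types and *Clec1b* did. *Vwf* (von Willebrand factor, stored in endothelial granules and binding platelets, chr6:125546774-125686679, plus strand) had levels of 0.597, 0.330, 0.426 and 0.221 in chamber EdCs, 0.525, 0.360, 0.242 and 0.387 in cushion EdCs and 0.531, 0.280, 0.507 and 0.504 in vascular ECs. All 3 ranges overlapped, but the cushion EdCs were not uniform, as their sub-clusters below show. *Clec1b* (CLEC-2, the podoplanin receptor of platelets, chr6:129397297-129409335, plus strand) had levels of 0.212, 0.470, 0.105 and 0.228 in chamber EdCs and of 2.12, 1.29, 0.786 and 1.17 in vascular ECs. Cushion EdCs held 1 to 9 UMIs of it per library, at levels of 0.001 to 0.020. The 3 types did not overlap, and the chamber mean was 0.189 of the vascular mean. *Clec9a* overlaps *Clec1b* on the same strand, so reads in the shared stretch cannot be told apart.

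*Gpr182* (an atypical chemokine receptor of endothelium, chr10:127747276-127751732, minus strand, overlapped on the other strand by *Zbtb39*) was highest in chamber EdCs. Its levels there were 1.45, 1.06, 1.28 and 0.773 in libraries 5 to 8. Cushion EdCs had 0.330, 0.274, 0.304 and 0.244, and vascular ECs 0.494, 0.773, 0.203 and 0.280. Within every library chamber EdCs lay above both other types, 3.96-fold above cushion EdCs on the means. *Tie2-cko* library 6 of the vascular ECs and *Tie2-cko* library 8 of the chamber EdCs had the same level to 3 digits (0.773), so the ranges of those types touched.

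**Figure D1:**
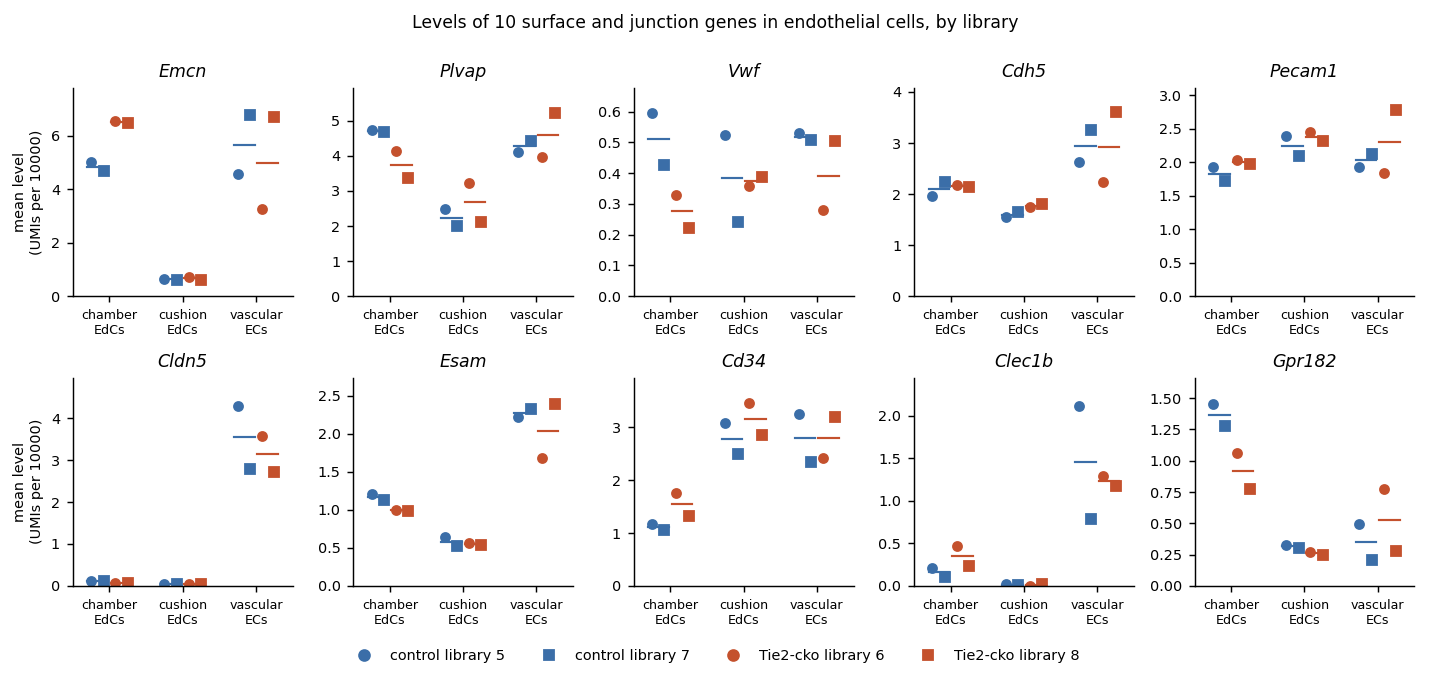
Mean level (UMIs per 10000 UMIs of a cell) of each of the 10 genes in chamber EdCs, cushion EdCs and vascular ECs. Points are libraries (circles 5 and 6, squares 7 and 8, blue control, red *Tie2-cko*) and short lines are the means of the 2 libraries of a genotype. *Emcn* is near 0.6 to 0.7 in every cushion library, and *Cldn5* is high in vascular ECs, at 2.71 to 4.30.

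Over the 10 genes and the 3 pairs of these types, 20 of the 30 pairs had libraries that did not overlap. The share of all genes that separate in this way was not computed, so the count does not set the 10 apart. The types were found by clustering the same cells, so these differences between types carry no test. Outside the endothelium the genes were low, with some exceptions. Mesenchymal cells had mean levels of 0.455 for *Cd34*, 0.382 for *Plvap* and 0.352 for *Pecam1* over 4 libraries. Megakaryocytes and platelets, of which control library 5 alone held enough cells (36), had the highest *Clec1b* level of all 12 named types, 3.25, and levels of 0.276 for *Vwf*, 0.246 for *Esam* and 0.228 for *Pecam1*. Macrophages, likewise from library 5 alone (27 cells), had a *Cd34* level of 0.713. *Gpr182* was next highest after the 3 endothelial types in epicardial cells, at 0.053.

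**Figure D2:**
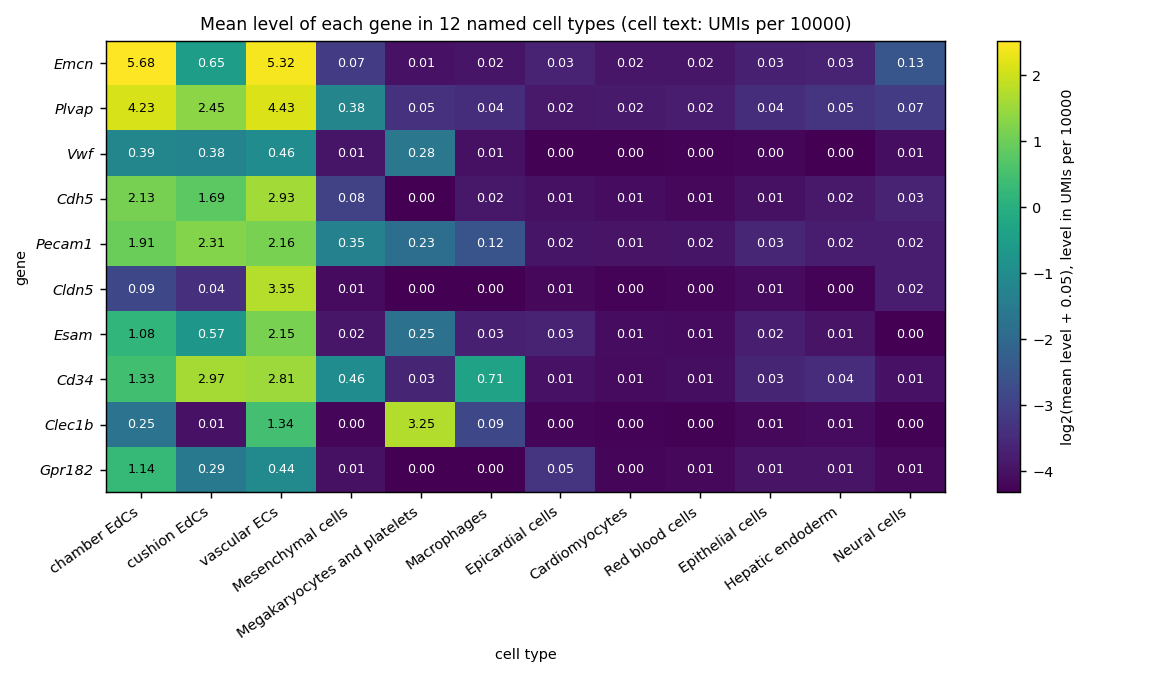
Mean level of the 10 genes (vertical axis) in 12 named cell types (horizontal axis), averaged over the libraries with at least 20 cells of the type. Numbers are UMIs per 10000, and the colour is log2(level + 0.05). The first 3 columns, the endothelial types, hold the highest level of 9 genes, and *Clec1b* is highest in megakaryocytes and platelets, a column that rests on control library 5.

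The share of cells with at least 1 UMI of a gene was taken from cells thinned to 5500 UMIs each, which left out 14 to 40 shallower chamber EdCs per library. The median depth before thinning was 14896.5, 25666, 12579.5 and 11009 UMIs in chamber EdCs. *Emcn* was detected in 83.1%, 83.2%, 81.3% and 76.7% of the chamber EdCs of libraries 5, 6, 7 and 8, in 20.3% to 31.7% of cushion EdCs and in 76.4% to 89.1% of vascular ECs. In cardiomyocytes, which should lack it, the share was 0.64% to 1.19%. Without thinning it was 39.9%, 55.5%, 39.2% and 35.3% of cushion EdCs, and at equal depth the cushion share lay above that of cardiomyocytes in every library.

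*Cldn5* was detected in 75.3%, 69.8%, 54.3% and 69.6% of vascular ECs but in 3.20% to 5.82% of chamber EdCs, against 0.08% to 0.15% of cardiomyocytes. *Clec1b* was found in 7.89%, 24.0%, 5.09% and 8.24% of chamber EdCs and in 59.6%, 47.6%, 21.7% and 28.3% of vascular ECs. The *Clec1b* share of *Tie2-cko* library 6 stood above the other chamber libraries, with an exact 95% binomial interval of 16.8% to 32.5% that covers counting error only. In the cushion EdCs of that library 0 of 126 thinned cells held a *Clec1b* UMI, which allows a share of up to 2.38% of cells with a UMI at this depth, and without thinning the share was 0.781%. *Gpr182* was found in 50.7% and 48.5% of control chamber EdCs and in 42.4% and 28.9% of *Tie2-cko* chamber EdCs. Without thinning, the median over the 10 genes of the share in chamber EdCs was 71.9%, against 46.9% with it. A thinned chamber EdC held a median of 4 or 5 of the 10 genes, a cushion EdC 3 and a vascular EC 6.

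**Figure D3:**
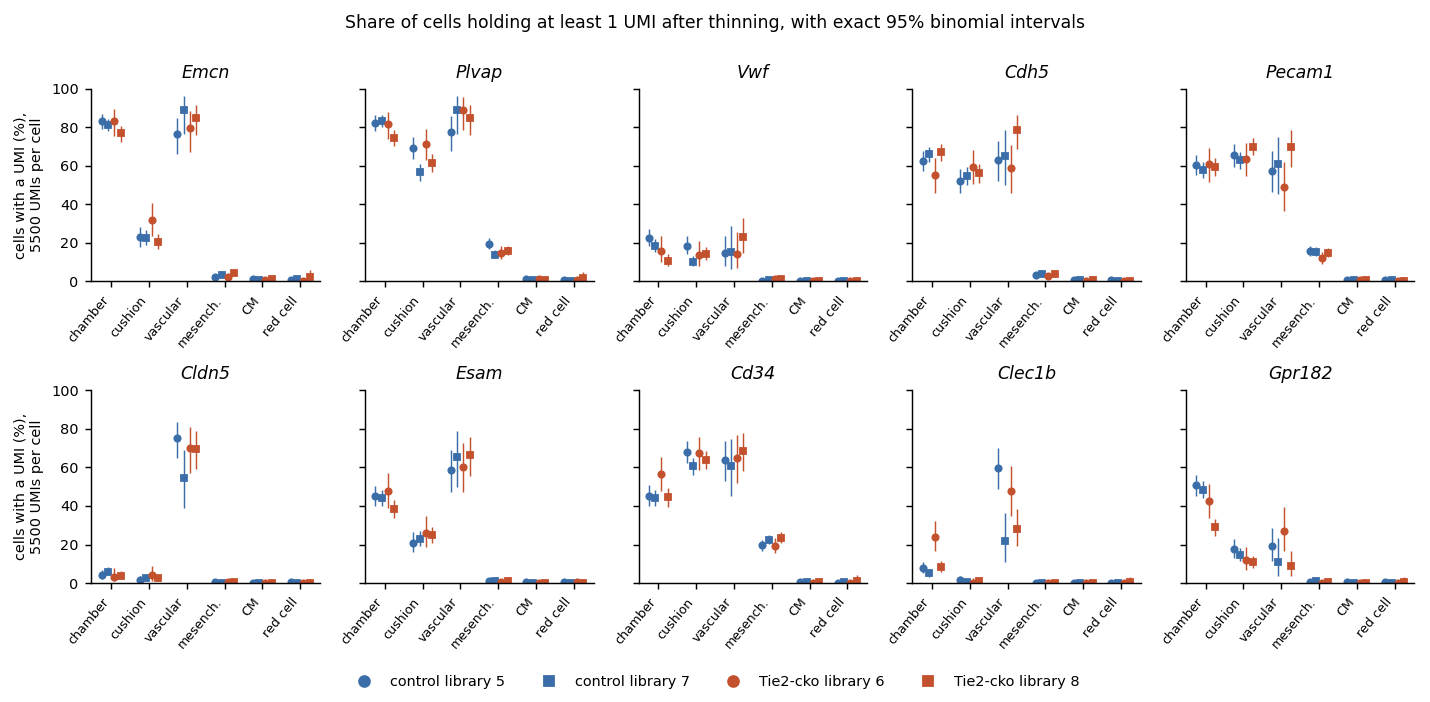
Share of cells (%) with at least 1 UMI of each gene after thinning to 5500 UMIs, in 3 endothelial types, mesenchymal cells, cardiomyocytes (CM) and red blood cells. Points are libraries, blue control and red *Tie2-cko*, and bars are exact 95% binomial intervals, which cover counting error only. *Vwf* stays under 23% in all types, while *Emcn* reaches 76.7% to 83.2% of chamber EdCs.

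To see how the genes vary within these types, the endothelial cells were clustered again, which gave 7 sub-clusters. Sub-clusters 0 and 2 were chamber EdCs (98.2% and 99.1%), sub-cluster 1 was cushion EdCs (97.5%) and sub-cluster 6 vascular ECs (98.2%). Sub-cluster 3 mixed chamber (43.8%) and cushion EdCs (55.8%), sub-cluster 4 was mostly cushion EdCs (88.6%), and sub-cluster 5 joined cushion EdCs (67.8%) and vascular ECs (31.0%). The 258 cells of sub-cluster 5 had high levels of several of the genes. Its *Vwf* levels were 1.99, 0.816, 0.699 and 1.23 in libraries 5 to 8, and its *Cd34* levels 6.66, 6.49, 4.54 and 5.63. The highest level of a library in any other sub-cluster was 0.708 for *Vwf*, just above the lowest library of sub-cluster 5, and 3.27 for *Cd34*. Sub-cluster 5 held 14.6%, 21.9%, 9.70% and 13.1% of the cushion EdCs of libraries 5 to 8, so the cushion levels above include it. The vascular levels and shares above include it as well, at 15.5%, 7.79%, 44.2% and 37.5% of the vascular ECs of these libraries. *Vwf* was at 0.180 to 0.225 in sub-cluster 1, below sub-clusters 0 and 2 in every library. In sub-cluster 4 it was at 0.294 to 0.435. *Cldn5* was at 0.528 to 0.983 in sub-cluster 5 and at 0.002 to 0.036 in sub-clusters 1 and 4. *Tek* was at 1.14 and 0.935 in the control libraries of sub-cluster 5 and at 1.00 and 1.07 in the *Tie2-cko* libraries, so the genotypes overlapped there, unlike in sub-clusters 0 to 4.

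*Emcn* in sub-cluster 0 had levels of 5.46 and 4.96 in control and 7.39 and 8.15 in *Tie2-cko* libraries, and in sub-cluster 2 of 5.24 and 5.25 against 7.05 and 8.23. In the mixed sub-cluster 3 the genotypes overlapped, with 1.22 and 0.798 in control and 0.857 and 1.53 in *Tie2-cko*. In sub-cluster 4, mostly cushion EdCs, *Emcn* was higher in both *Tie2-cko* libraries at low levels (0.815 and 0.929 against 0.662 and 0.689). In sub-cluster 1, also cushion EdCs, the genotypes overlapped (0.577 and 0.497 against 0.514 and 0.456). Sub-cluster 5, which holds cushion EdCs too, had higher *Emcn* levels that overlapped (2.45 and 3.14 against 2.58 and 3.10). Its part in the cushion *Emcn* levels and shares was not tested. The makeup of the chamber EdCs differed by library, as sub-cluster 3 held 22.4% of them in *Tie2-cko* library 8 and 8.73%, 10.1% and 9.32% in libraries 5, 6 and 7. *Clec1b* was likewise higher in both *Tie2-cko* libraries of sub-clusters 0 (0.576 and 0.314 against 0.180 and 0.157) and 2 (0.490 and 0.380 against 0.313 and 0.090). *Vwf* was lower in both *Tie2-cko* libraries of sub-clusters 0 (0.388 and 0.259 against 0.593 and 0.447) and 2 (0.349 and 0.286 against 0.708 and 0.450). It was also lower in both in the mixed sub-cluster 3 (0.094 and 0.075 against 0.254 and 0.167). In sub-clusters 1, 4, 5 and 6 the genotypes overlapped for *Vwf*.

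**Figure D4:**
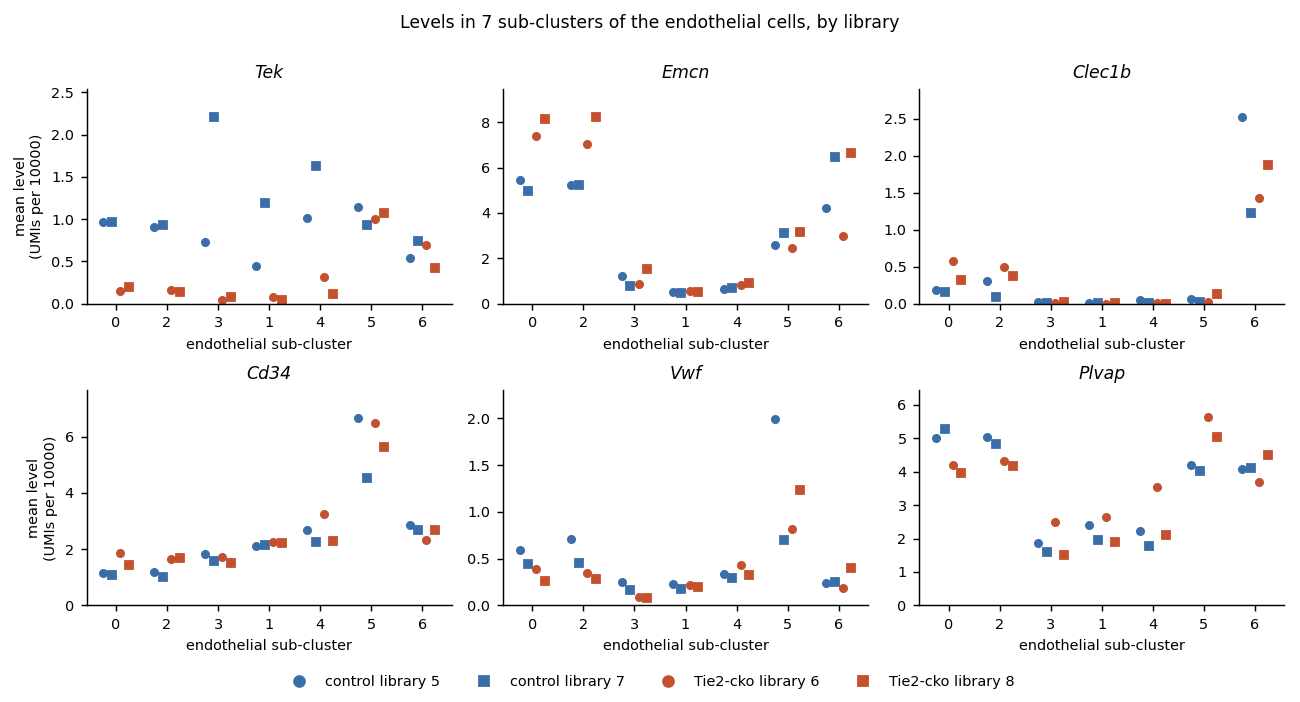
Mean level (UMIs per 10000) of *Tek* and 5 of the genes in 7 sub-clusters of the endothelial cells. Sub-clusters 0 and 2 are chamber EdCs, 3 mixed, 1 and 4 mostly cushion EdCs, 5 cushion and vascular cells and 6 vascular ECs, and points are libraries (blue control, red *Tie2-cko*). *Emcn* in sub-clusters 0 and 2 is at 4.96 to 5.46 in control and 7.05 to 8.23 in *Tie2-cko* libraries.

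The patterns of the genes across types were compared with each other and with all other genes over 39 profiles, each a named type in 1 library (12 types, 12631 genes). Profiles of a library share its depth and free RNA, so the correlations are descriptions. Between pairs of the 10 genes Pearson's r ran from 0.53 (*Cd34* with *Clec1b*) to 0.98 (*Plvap* with *Cdh5*). The likest other genes were *Gja4* (r = 0.981) and *Mmrn2* (0.977) for *Emcn*, *Gngt2* (0.977) and *Abi3* (0.976) for *Cd34*, *Tmem204* and *Plxnd1* (both 0.986) for *Cdh5*, and *Icam2* (0.985) and *Eng* (0.979) for *Pecam1*. For *Cldn5* they were *9230102K24Rik* and *Kcne3* (both 0.985), for *Esam* *Gimap6* (0.983) and *Bcl6b* (0.974), for *Plvap* *Cd93* (0.988) and *She* (0.976), and for *Vwf* *Ccm2l* (0.979) and *Tie1* (0.976). *Clec1b* had the lowest best match, *Mmrn1* (0.950), followed by *Trpc6* (0.905), and *Gpr182* was likest to *Klhl4* (0.959) and *Adgrf5* (0.956).

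Loss of endocardial *Tie2* was then compared with control in chamber EdCs. In both *Tie2-cko* libraries *Emcn*, *Cd34* and *Clec1b* were above both controls, and *Vwf*, *Gpr182* and *Cldn5* below both. None of the 10 genes passed the adjusted threshold in the main fit, which had no block, while some alternative fits given below did call genes. All 10 were tested on UMIs summed per library. In the quasi-likelihood test of edgeR, adjusted after Benjamini and Hochberg over 11511 genes, 0 of 10 were called, where *Tek* was the single call in all (0.00869% of genes). At an unadjusted p under 0.05 there were 6 of 10, against 6.39% of all genes, and DESeq2 called 0 of 10. A fit with libraries 5 and 6 set against 7 and 8 as a block, a pairing the labels do not give, called 6 of 10, 3 higher and 3 lower, where 6.33% of all genes were called. On normalized CPM (UMIs of a summed library scaled by its normalized size) the genotypes did not overlap for 9 of the 10, 4 higher and 5 lower in *Tie2-cko*, where 18.9% of all genes were higher, 17.5% lower and 36.4% either. The 10 genes were chosen with earlier results of these data known, so such shares, here and below, do not test the set.

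The level of *Emcn* was 5.02 and 4.67 in control and 6.56 and 6.48 in *Tie2-cko* chamber EdCs, a log2 fold change of 0.44 (SE 0.13, adjusted p = 0.522, edgeR). *Cd34* had a log2 fold change of 0.43 (SE 0.15, adjusted p = 0.627, edgeR), from 1.16 and 1.06 to 1.76 and 1.33. The largest difference of the 10 was that of *Clec1b*, 1.32 (SE 0.40, adjusted p = 0.549, edgeR), from 0.212 and 0.105 to 0.470 and 0.228. Here the lower *Tie2-cko* library (0.228) stood close to the higher control (0.212). *Clec1b* passed the threshold without control library 5 (1.93, adjusted p = 0.0127, edgeR) and without *Tie2-cko* library 8 (1.78, adjusted p = 0.000212, edgeR), fits with 1 library in an arm that assume it to vary like the others. Without *Tie2-cko* library 6 it fell to 0.68 (adjusted p = 0.681, edgeR) and without control library 7 to 0.86 (adjusted p = 0.882, edgeR). Markers of megakaryocytes and platelets, which also hold *Clec1b*, were not higher in these *Tie2-cko* cells. Their summed level over 8 markers was 0.102 to 0.110 in control and 0.068 to 0.070 in *Tie2-cko* chamber EdCs, 3 of 8 were lower in both *Tie2-cko* libraries, none was higher in both and *Gp6* was at 0. Vascular ECs, which held more *Clec1b* than chamber EdCs, have 8 markers whose summed level in chamber EdCs was 1.91 to 2.21 in control and 2.28 to 2.30 in *Tie2-cko*, 2 of 8 being higher and 1 lower in both *Tie2-cko* libraries. The summed level of 8 mesenchymal markers was 0.973 to 1.02 in control and 1.14 to 1.45 in *Tie2-cko*, with 4 of 8 higher and 2 lower in both, and no defining marker of either type was at 0 in all libraries. The part of these markers in the differences was not tested.

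*Vwf* had a log2 fold change of -0.75 (SE 0.20, adjusted p = 0.466, edgeR), from levels of 0.597 and 0.426 to 0.330 and 0.221. *Gpr182* had -0.59 (SE 0.16, adjusted p = 0.485, edgeR), from 1.45 and 1.28 to 1.06 and 0.773, and *Cldn5* -0.60 (SE 0.23, adjusted p = 0.722, edgeR) on 36 to 100 UMIs per library. Both *Tie2-cko* libraries were thus below both controls for each of the 3. *Plvap* had -0.28 (95% interval -0.63 to 0.06) and *Esam* -0.15 (-0.45 to 0.15), also without overlap of the libraries. For *Cdh5* the log2 fold change was 0.05 (-0.28 to 0.37) and for *Pecam1* 0.10 (-0.21 to 0.40), so a log2 difference of 1 in either direction lay outside both intervals.

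In cushion EdCs 9 of the 10 genes were tested, *Clec1b* having too few UMIs. In edgeR, with adjusted p-values as above, 0 of 9 were called (0.0438% of 11428 genes), 1 had an unadjusted p under 0.05 (1.7% of all genes), and DESeq2 called 0. That 1 was *Gpr182*, with levels of 0.330 and 0.304 in control and 0.274 and 0.244 in *Tie2-cko* libraries, a log2 fold change of -0.38 (SE 0.16, adjusted p = 0.999, edgeR). *Gpr182* and *Esam* were below both controls on normalized CPM, 2 of 9 where 28.1% of all genes did not overlap. By level *Gpr182* was again below both controls, but *Esam* overlapped, and *Cdh5* and *Cldn5* were above both controls. *Emcn* had a log2 fold change of 0.02 (95% interval -0.30 to 0.33) and *Vwf* of -0.02 (-0.61 to 0.57), with the genotypes overlapping in both.

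In vascular ECs, where *Tek* did not differ beyond its spread, 0 of the 10 were called by edgeR on adjusted p-values (0.0326% of 9204 genes), 0 had an unadjusted p under 0.05 (0.88% of all genes), and DESeq2 called 0. For 0 of 10 did the genotypes separate on normalized CPM, where 24.6% of all genes did. By level *Vwf* was below both controls in both *Tie2-cko* libraries, in library 8 only just, at 0.755 of the control mean. Its edgeR log2 fold change had the other sign, 0.21. The summed UMIs came from 52 to 97 cells per library. The makeup of these cells differed as well, as sub-cluster 5 held 7.79% to 44.2% of them by library. Mean levels in sub-clusters 5 and 6 were 0.0605 and 1.76 for *Clec1b*, 0.753 and 3.90 for *Cldn5* and 1.19 and 0.271 for *Vwf*. The part of this makeup in the vascular values was not tested. *Emcn* had a log2 fold change of -0.15 (95% interval -0.83 to 0.53), *Clec1b* of -0.10 (-1.01 to 0.80) and *Gpr182* of 0.49 (-0.72 to 1.71). Leaving out 1 library turned the sign for each of the 10 genes here.

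**Figure D5:**
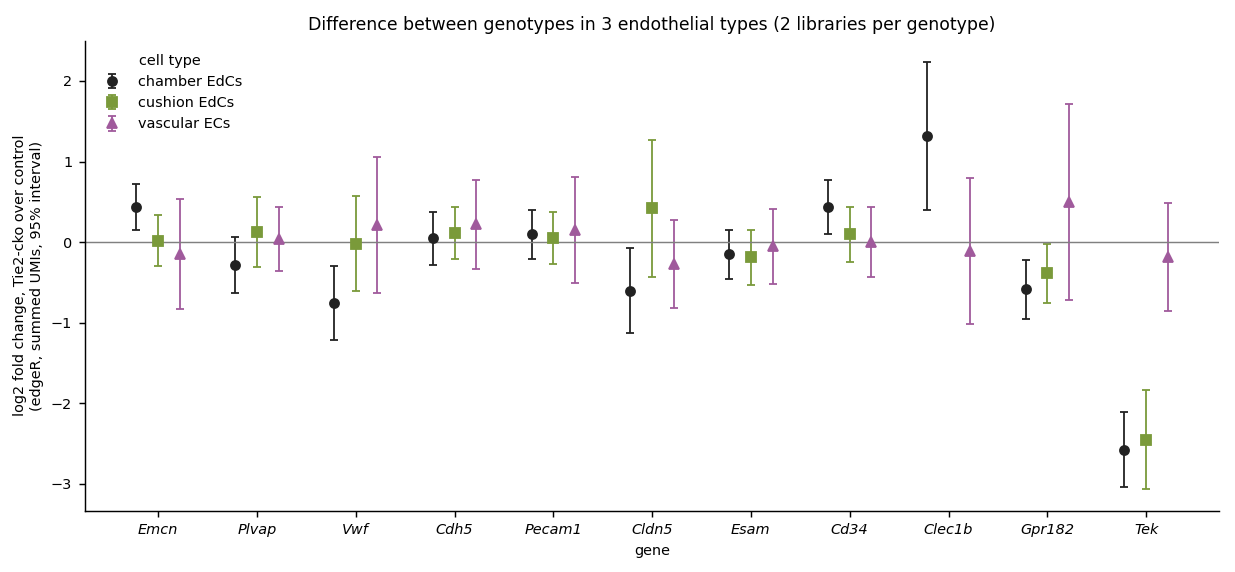
Log2 fold change of *Tie2-cko* over control (vertical axis) for the 10 genes and *Tek* in chamber EdCs (black circles), cushion EdCs (green squares) and vascular ECs (purple triangles), from edgeR on UMIs summed per library, 2 libraries per genotype. Bars are 95% intervals. *Tek* stands at -2.58 and -2.45 in the endocardial types, and *Clec1b*, not tested in cushion EdCs, at 1.32 in chamber EdCs.

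Whether the genotype effect differed between cell types was tested by itself. Against cushion EdCs, 1 of the 10 genes passed the threshold on adjusted p-values in edgeR (0.466% of 12019 genes), and 6 of 10 had an unadjusted p under 0.05 (8.34% of all genes). The call was *Emcn*, whose effect was higher in chamber than in cushion EdCs by 0.41 on the log2 scale (SE 0.09, 95% interval 0.23 to 0.60, adjusted p = 0.0434, edgeR). In chamber EdCs both *Tie2-cko* libraries lay above both controls, while in cushion EdCs the levels were 0.650 and 0.606 in control and 0.733 and 0.611 in *Tie2-cko*. The call was close to the threshold. It was lost with other size factors (adjusted p = 0.0509, edgeR) and with DESeq2, and without library 5, 7 or 8 (adjusted p = 0.247, 0.161 and 0.0540, edgeR), but not without library 6 (0.0163). Its size was 0.39 to 0.44 when a library was left out and 0.36 to 0.67 under the other alternatives.

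*Plvap* had a difference of -0.41 (SE 0.10, adjusted p = 0.0657, edgeR) and *Vwf* of -0.79 (SE 0.20, adjusted p = 0.126, edgeR) between chamber and cushion EdCs. Both passed the threshold when control library 5 was left out (*Plvap* -0.56 and *Vwf* -1.06, adjusted p = 0.0236 and 0.0299, edgeR). Without control library 7 they were smaller (*Plvap* -0.25 and *Vwf* -0.54, adjusted p = 0.758 and 0.381, edgeR), and *Vwf* was -0.43 without *Tie2-cko* library 8 (adjusted p = 0.557, edgeR). *Vwf* passed without *Tie2-cko* library 6 (-1.10, adjusted p = 0.000348, edgeR), and without *Tie2-cko* library 8 *Plvap* (-0.48, adjusted p = 0.000597, edgeR), *Cd34* (0.44, adjusted p = 0.0111, edgeR) and *Clec1b* did. Against vascular ECs, 0 of the 10 genes were called on adjusted p-values in edgeR (0.00883% of 11324 genes, *Tek* alone), 4 had an unadjusted p under 0.05 (2.91% of all genes) and DESeq2 called 0. The smallest p of these was that of *Clec1b* (difference 1.26, SE 0.31, adjusted p = 0.844, edgeR). When a library was left out there, the difference ran from 0.76 to 1.70 for *Clec1b* and from 0.19 to 1.01 for *Emcn*. It ran from -1.69 to -0.25 for *Gpr182* and from -1.66 to -0.33 for *Vwf*.

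Other genes of the endothelial surface and junctions were read from lists beside the 10. Of 32 other surface, caveolar and glycocalyx genes 29 were tested in chamber EdCs and 0 called by edgeR, 7 having an unadjusted p under 0.05 with a higher value in *Tie2-cko* and 0 with a lower one (6.39% of all genes in either direction), at a median log2 fold change of 0.21. Of 30 junction genes 28 were tested and 0 called, 3 being higher and 0 lower at that p (median 0.13). Of 13 known partners 6 were tested and 0 called, 0 being higher and 1 lower (median 0.20). The median over all genes was 0.0032. The lists too were chosen with earlier results of these data known, so these counts do not test them as sets.

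The smallest p-values of these lists in chamber EdCs belonged to *Esm1* (endocan, a secreted proteoglycan), which had 0.558 and 0.109 normalized CPM in control and 5.26 and 2.88 in *Tie2-cko* libraries, a log2 fold change of 3.63 (SE 0.66, adjusted p = 0.219, edgeR). *Robo4* (an endothelial roundabout receptor) had 1.95 and 0.981 against 7.36 and 4.70 (2.06, SE 0.44, adjusted p = 0.264, edgeR). Both genes were above both controls in each *Tie2-cko* library, at low counts. *Mcam* (the adhesion molecule CD146) had a log2 fold change of 0.69 (adjusted p = 0.369, edgeR) and *Cavin1* (a caveolar coat protein) of 0.60 (adjusted p = 0.485, edgeR).

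In cushion EdCs 27 surface, 28 junction and 4 partner genes were tested and 0 were called by edgeR. At an unadjusted p under 0.05 (1.7% of all genes in either direction), 1 surface gene was higher (*Tspan7*, 0.78) and 1 lower (*Thbd*, thrombomodulin, -0.63), followed by *Bmx* (0.34) and *Mmrn2* (0.35) by size of p. In vascular ECs 30, 26 and 4 were tested and 0 called. There the smallest p-values were those of *Clec14a* (0.83), *Cavin2* (0.77), *Ptprb* (VE-PTP, the phosphatase partner of VE-cadherin, 0.69) and *Vcam1* (1.43), each higher in *Tie2-cko*.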

How the data were processed

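Single-cell RNA sequencing was measured in 4 libraries of E10.5 mouse hearts, grouped by the genotype in the labels (control 5 and 7, *Tie2-cko* 6 and 8). The values deposited by the authors are raw UMI counts of genes in barcodes from Cell Ranger, not normalized. File headers name version 6.1.2, the methods another, and the labels give mm10. Library totals were 259775540, 222270938, 169361996 and 210062861 UMIs for libraries 5 to 8.

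Kept barcodes had 500 or more genes, 1000 or more UMIs and a mitochondrial share of 10% or less, and the highest Scrublet scores (scanpy 1.11.5) were removed at 0.8% per 1000 barcodes. Cells were clustered in Seurat 5.3.0 without integration on up to 2000 variable genes, leaving out the 10 genes, *Tek* and the listed genes, from 30 principal components (20 neighbours, resolution 0.8). Clusters were named by markers. One cluster with chamber markers and a very low UMI number stayed unnamed. The level is UMIs per 10000, averaged over cells. Shares were taken after thinning to 5500 UMIs with a fixed seed.

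For tests, the counts of a cell type were summed within each library and fitted across all genes with edgeR 4.0.16 (TMM, filterByExpr, quasi-likelihood test, R 4.3.3), with Benjamini-Hochberg adjustment and a threshold of 0.05. Standard errors are the absolute log2 fold change over the square root of F. Differences between types came from a type by genotype term with library as a block. The fits were tested on simulated data first. Alternatives were DESeq2 1.42.0, other size factors, filters, doublet handling, clusterings and the omission of each library, and no per-sample column was left unused. Genes named are the 10, *Tek*, marker genes, the 2 genes with the likest pattern to each of the 10 (correlation of log2(level + 0.05)) and, of the lists of 30 junction, 32 surface and 13 partner genes, the 4 with the smallest p per type, as none passed the threshold. The 10 genes and the lists were chosen with earlier results of these data known. Positions come from GENCODE M21 on GRCm38, matched by gene identifier.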

Additional observations from a re-analysis of the deposited data

Results flagged for a closer look

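The genotype effect on *Emcn* was higher in chamber than in cushion EdCs by 0.41 on the log2 scale, and this difference between cell types was itself tested (adjusted p = 0.0434, edgeR quasi-likelihood test). Its level was above both controls in both *Tie2-cko* libraries of the chamber EdCs, and overlapped in the cushion EdCs. The *Emcn* call was close to the threshold and was lost with RLE size factors, DESeq2 or the stricter cell filter. The genotype effect on *Tek*, the deleted gene, was lower in chamber EdCs than in vascular ECs by a tested log2 difference of -2.43 (adjusted p = 0.0478, edgeR). Groups of 2 libraries are too small for a check of single outlying libraries.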

How the results depend on the processing

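In chamber EdCs the count of the 10 genes called, 0 in edgeR, was 3 without the filter on low counts and 0 or 1 when a library was left out, and over all genes the calls rose from 1 to 153 without the filter, 16 in DESeq2 and 16 to 75 when a library was left out. The labels give the genotypes no shared replicate numbers and so no pairs. A block of libraries 5 and 6 against 7 and 8, planned because earlier results showed their cell mixtures to differ this way, called 6 of the 10 in chamber EdCs (6.33% of all genes), 5 in sub-clusters 0 and 2 only (902 of 11257 genes, chosen after seeing the data), 4 for chamber against cushion EdCs (1.81% of all genes) and 3 for chamber against vascular ECs (0.945%). For chamber against cushion EdCs the count, 1, became 0 with RLE size factors, DESeq2, the stricter cell filter (1500 genes, 5% mitochondrial) or the 10 genes among the variable genes, 2 at a resolution of 1.2 (70 of all genes, from 56), 3 without the filter (157), and 0 to 3 when a library was left out (47 to 150). For chamber against vascular ECs it became 1 without the filter, where the calls over all genes rose from 1 to 39. In cushion EdCs and vascular ECs it was 0 under every alternative run, while over all genes the calls went from 5 to 64 and from 3 to 11 with the block and to 24 and 22 without the filter. The causes were not tested.

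*Tek* missed the threshold in chamber EdCs with the stricter cell filter (-2.64, adjusted p = 0.0586, edgeR) or with cushion EdCs added (-2.49, 0.0660), in cushion EdCs without haemoglobin genes (-2.45, 0.0523) and for chamber against vascular ECs with the stricter filter (-2.49, 0.0761). Its difference between chamber and cushion EdCs, -0.14, turned to 1.11 in sub-clusters 0 and 2 against cushion EdCs without sub-cluster 5 (chosen after seeing the data) and ran from -0.59 to 0.21 when a library was left out, and its vascular value from -0.49 to 0.11.

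In cushion EdCs *Emcn* (0.02) turned to -0.11 without doublet removal, -0.042 at a resolution of 1.2 and -0.16 without sub-cluster 5, and *Vwf* (-0.02) to 0.047 with the block, 0.0017 at a resolution of 1.2 and 0.00027 with the 10 among the variable genes. In vascular ECs *Cd34* (-0.00052) turned to 0.0025 without the filter, 0.026 with the stricter filter, 0.10 without doublet removal and 0.044 with the 10 among the variable genes, and *Emcn* and *Clec1b* to 0.019 and 0.065 without doublet removal. *Pecam1* for chamber against vascular ECs turned to 0.0036 with the block.

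Where leaving out a library turned the sign of an uncalled log2 fold change, its values ran in chamber EdCs from -0.086 to 0.18 for *Cdh5*. In cushion EdCs the values ran from -0.029 to 0.23 for *Cd34*, -0.028 to 0.047 for *Emcn*, -0.43 to 0.51 for *Vwf*, -0.13 to 0.32 for *Plvap* and -0.036 to 0.14 for *Pecam1*. In vascular ECs the values ran from -0.11 to 0.11 for *Cd34*, -0.60 to 0.18 for *Emcn*, -0.31 to 0.62 for *Vwf*, -0.61 to 0.84 for *Clec1b*, -0.049 to 0.12 for *Plvap*, -0.066 to 0.44 for *Cdh5*, -0.22 to 0.089 for *Esam*, -0.58 to 1.26 for *Gpr182*, -0.28 to 0.47 for *Pecam1* and -0.54 to 0.078 for *Cldn5*. For chamber against cushion EdCs the values ran from -0.12 to 0.010 for *Cdh5* and -0.044 to 0.11 for *Esam*. For chamber against vascular ECs the values ran from -0.39 to 0.079 for *Cdh5*, -0.34 to 0.13 for *Esam*, -0.39 to 0.32 for *Pecam1* and -0.79 to 0.053 for *Cldn5*. Any genotype value that changed sign was uncalled in the fit reported.

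The share of cells with a UMI, as the median over the 10 genes, was 71.9% without thinning against 46.9% with it in chamber EdCs, 46.3% against 24.1% in cushion EdCs and 80.3% against 62.7% in vascular ECs. The vascular values rest on 52 to 97 cells per library, of which sub-cluster 5 made up 7.79% to 44.2%.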

Other observations

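The unnamed cluster of very low UMI number with chamber markers held 545, 339, 402 and 236 cells in libraries 5, 6, 7 and 8, with a median of 1683, 1843, 1974.5 and 1987 UMIs. Its *Emcn* levels were 1.55 and 1.83 in control and 2.12 and 2.77 in *Tie2-cko* libraries, so here too both *Tie2-cko* libraries were above both controls. *Cd34* was likewise higher in both *Tie2-cko* libraries of the cluster, with 1.27 and 0.562 against 0.358 and 0.381. *Vwf* (0.020 to 0.066) and *Clec1b* (0.044 to 0.275) overlapped between the genotypes. With these cells counted as chamber EdCs 0 of the 10 genes were called by edgeR.

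Sub-cluster 5 of the endothelial cells, led by *Rgs2*, *Isl1* and *Hey1*, held 55, 34, 71 and 98 cells in libraries 5 to 8. Beside its high *Vwf* and *Cd34*, its *Pecam1* levels were 3.04 and 2.74 in control and 3.47 and 3.45 in *Tie2-cko*, and its *Plvap* levels 4.202 and 4.004 against 5.64 and 5.02, without overlap in either. *Gpr182* was low there, at 0.053 to 0.160. Sub-cluster 5 was singled out after its values were seen.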
